A study of Mus musculus with 25 samples.

Results

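The transcription factor NRF2 (gene Nfe2l2), its inhibitor Keap1 and 8 of their best known antioxidant targets, Nqo1, Hmox1, Gclc, Gclm, Txnrd1, Srxn1, Slc7a11 and Gsr, were described in the prefrontal cortex of stressed male mice. The genes were chosen by symbol as a known response to plant phenolic compounds, and all 10 were found among the 23990 genes of the expression table. The series holds 25 samples of total RNA from the prefrontal cortex of wild-type C57BL/6 mice aged 10 weeks, in 6 groups: each sex after social defeat under dihydrocaffeic acid and malvidin-glucoside, each sex after social defeat under vehicle, and each sex as controls. In social defeat a mouse is exposed to an aggressive mouse, and the compounds or vehicle were given before and during it. Only the group of males with social defeat and vehicle, labelled M-stress/vehicle, could be tied to columns of the table by name. It has 5 libraries, called replicates 1 to 5 here, under the assumption that a column's letter stands for the group and its number for the replicate. The other 20 columns were not used, so the values hold no effect of stress, of the compounds or of sex. Nothing in the labels ties each library to an animal of its own, so p-values measure only the spread between these libraries, which may be partly technical.

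NRF2 binds antioxidant response elements and switches on genes for glutathione, thioredoxin and quinone metabolism. In resting cells KEAP1, an adaptor of a CUL3 ubiquitin ligase, marks NRF2 for destruction, and oxidants or electrophiles, among them some plant phenolics, block this. NRF2 activity is therefore set largely at the protein, which RNA levels do not measure. In the brain the pathway is known mainly from astrocytes and other non-neuronal cells, and from neurons to a lesser degree.

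The promoters of 7 of the 10 genes were matched to RefSeq windows of 250 bases before to 50 bases after an annotated start on GRCm38.p6, 9 windows in all. The core of the antioxidant response element, TGACNNNGC on either strand, occurred in 1 window each of Nfe2l2, Gclm, Txnrd1 and Srxn1. The same letters occurred in 14.0% of 27025 genes with a window. The stretches below show these 4 matches in capitals, read along the strand of the gene, because they are the binding motif that names the group.
Nfe2l2: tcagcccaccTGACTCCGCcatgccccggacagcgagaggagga
Gclm: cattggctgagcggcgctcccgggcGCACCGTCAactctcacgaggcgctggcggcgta
Txnrd1: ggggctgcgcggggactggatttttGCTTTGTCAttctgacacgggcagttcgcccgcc
Srxn1: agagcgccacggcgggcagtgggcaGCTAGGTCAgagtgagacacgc
The Nfe2l2 stretch lies at chr2:75704870-75704913 on the minus strand, with the match beginning 240 bases before the start. The Gclm stretch lies at chr3:122245398-122245456 on the plus strand, the Txnrd1 stretch at chr10:82859089-82859147 on the plus strand and the Srxn1 stretch at chr2:152105527-152105573 on the plus strand. Their matches are on the opposite strand and begin 134 and 92 bases before and 28 bases after the annotated start of each window. Txnrd1 had more than 1 window, and its match lies in the one at chr10:82858956-82859255. Its others held none, among them chr10:82833701-82834000, which holds the first base of the gene. None of the 4 matches overlapped a match of the AP-1 site TGACTCA, which occurred in 5.95% of genes and at 2 places in the Srxn1 window, 102 and 45 bases before the start.

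The Slc7a11 window held no match of TGACNNNGC but 2 matches of the amino acid response element TGATGCAA, the binding site of the stress factor ATF4, which occurred in 1.03% of genes. They face each other, with 11 bases between them, and are shown in capitals because Slc7a11 was the gene of the 10 that varied most. This motif was added after that spread was seen.
Slc7a11: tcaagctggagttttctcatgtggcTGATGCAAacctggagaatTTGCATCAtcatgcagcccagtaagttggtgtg
This stretch lies at chr3:50443628-50443704 on the minus strand. The Nqo1 and Keap1 windows held none of the 3 motifs. A match describes letters only, and elements outside these windows were not searched.

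The libraries held 34565147 to 44265039 reads, of which 5.70% to 6.12% were mitochondrial, and no pair of them differed beyond counting error in fewer than 5653 genes. The excitatory and inhibitory neuron markers of cortex were present, 12 of 12 with a mean of at least 26.3 CPM (CPM is the read number scaled to effective library size), with Slc17a7 at 1926 ± 94.3 CPM and Gad1 at 272 ± 31.3 CPM (SD over 5 libraries here and below). Of 4 choroid plexus markers, 1 reached 1 CPM. Libraries stood apart in other cell types: 8 oligodendrocyte markers peaked in replicate 3 and were lowest in replicate 4, a 2.19-fold range. Leptomeningeal and blood markers ran the other way, peaking in replicate 4 with replicate 3 lowest, over ranges of 3.28-fold and 4.40-fold. The neutrophil genes S100a8 and S100a9 of the blood list were 29.1-fold and 18.3-fold apart, while Hbb-bs, Hbb-bt and Hba-a1, the haemoglobin genes, were lowest in replicate 2 and at most 2.53-fold apart.

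Levels were compared between genes as RPKM, which divides CPM by the length of all annotated exons in kilobases. Srxn1 was the most abundant of the 10 genes at 28.5 ± 2.06 RPKM, above 93.3% of genes with a length. Keap1 (12.8 ± 0.558 RPKM), Gclc (12.4 ± 0.305 RPKM), Gsr (10.3 ± 0.972 RPKM), Gclm (9.11 ± 0.343 RPKM) and Txnrd1 (6.97 ± 0.148 RPKM) followed, and Slc7a11 (3.46 ± 0.727 RPKM), Nfe2l2 (2.94 ± 0.376 RPKM), Hmox1 (2.13 ± 0.216 RPKM) and Nqo1 (1.51 ± 0.249 RPKM) were lowest. The ranges over libraries overlapped for 4 of the 9 neighbouring pairs in this order: Keap1 and Gclc, Gsr and Gclm, Slc7a11 and Nfe2l2, and Nfe2l2 and Hmox1. The lowest gene, Nqo1, still stood above 51.8% of genes. Every library held at least 72 reads of each of the 10 genes. The order depends on the length used: per kilobase of the longest principal transcript, a length chosen after the data were seen, Txnrd1 stood at 14.0 RPKM, above Gclc at 13.7 RPKM, and Slc7a11 at 5.22 and Nfe2l2 at 4.51 RPKM. The ratios between genes given below use the length of all exons, and their size depends on that choice too.

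**Figure D1:**
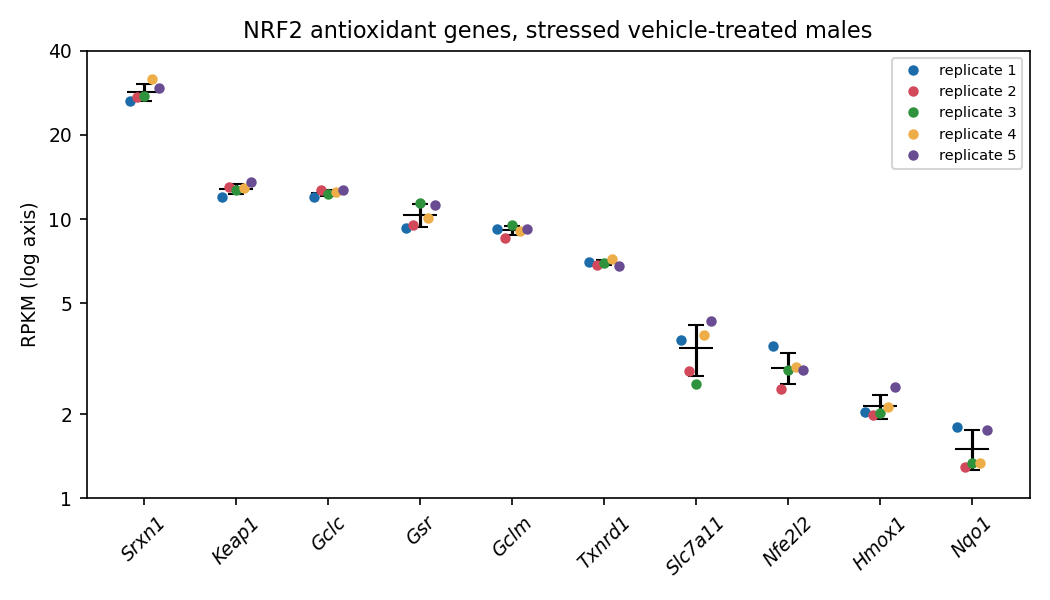
RPKM (log axis) of the 10 NRF2 antioxidant genes in 5 libraries of stressed vehicle-treated males, with points coloured by replicate and bars for the mean ± SD. Srxn1 stands apart at 26.3 to 31.6 RPKM, and Slc7a11 has the widest scatter, at 2.56 to 4.32 RPKM.

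Nfe2l2 (ENSMUSG00000015839, chromosome 2, 75675513 to 75704641, minus strand, GRCm38), which encodes NRF2, stood at 13.3, 9.34, 10.9, 11.3 and 11.0 CPM in replicates 1 to 5. Replicate 1 was highest and replicate 2 lowest, and the other libraries lay close together. The spread exceeded counting error (chi-square test of reads, adjusted p = 1.8e-05 over all genes), and it no longer passed the test without replicate 1 (adjusted p = 0.0664). Keap1 (ENSMUSG00000003308, chromosome 9, 21229730 to 21239361, minus strand), the inhibitor, stood at 56.3, 61.3, 59.7, 60.4 and 63.5 CPM in replicates 1 to 5. It was lowest in replicate 1, where Nfe2l2 was highest. Its variation passed the same test (adjusted p = 0.00182) and did not without replicate 1 (adjusted p = 0.182). The ratio of Nfe2l2 to Keap1 RPKM was 0.293 in replicate 1 and 0.188 to 0.230 in the other libraries. An antisense gene, Gm16754 (1.15 ± 0.435 CPM), shares 10.9% of the Keap1 exon bases. Since the strandedness of the counting is not given in the sources used here, reads of the pair cannot be told apart there.

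Slc7a11 (ENSMUSG00000027737, chromosome 3, 49892526 to 50443614, minus strand) encodes the cystine carrier xCT, which brings in the cysteine for glutathione in exchange for glutamate. It stood at 51.5, 39.9, 35.7, 53.7 and 60.2 CPM in replicates 1 to 5. Replicate 5 was highest and replicate 3 lowest, 1.69-fold apart, with replicates 1, 4 and 5 above replicates 2 and 3. Its variation was far beyond counting error (chi-square test, adjusted p = 2.9e-73 over all genes), and its coefficient of variation beyond counting error, 20.9%, was above that of 97.8% of the genes nearest in level, whose median was 6.27%. The partner chain of the carrier, Slc3a2, was at 108 ± 5.69 CPM and also highest in replicate 5 and lowest in replicate 3, over a narrower range of 1.15-fold. The ratio of Slc3a2 to Slc7a11 RPKM ran over libraries between 7.68 and 11.3.

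Slc7a11 is known from astrocytes and leptomeningeal cells as well as microglia. The marker lists of leptomeninges, blood and microglia were also lowest in replicates 3 and 2. Leptomeningeal markers scored 0.11, -0.54, -0.71, 1.01 and 0.13 in replicates 1 to 5, as mean log2 deviations of the 7 of 8 genes with at least 1 CPM, and none of the 8 was at 0 in any library. Their summed level was 33.9 to 88.3 CPM. Replicate 4 scored above replicate 5 in these markers, while Slc7a11 deviated by 0.18 in replicate 4 and by 0.35 in replicate 5. Microglia markers scored 0.12, -0.06, -0.10, 0.01 and 0.03, and astrocyte markers 0.19, -0.12, 0.00, -0.01 and -0.07. The part of these cell types in the spread of Slc7a11 was not tested, and in such tissue samples more cells of a type and more RNA per cell cannot be told apart.

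Gclc and Gclm encode the subunits of glutamate-cysteine ligase, which makes the first bond of glutathione, and both had narrow ranges. The catalytic subunit Gclc (ENSMUSG00000032350, chromosome 9, 77754535 to 77794485, plus strand) stood at 45.1, 47.8, 46.4, 46.9 and 47.9 CPM in replicates 1 to 5. The lowest and highest libraries were 1.06-fold apart, and the test found no variation past its threshold (adjusted p = 0.361). The modifier subunit Gclm (ENSMUSG00000028124, chromosome 3, 122245557 to 122270732, plus strand) stood at 57.7, 54.0, 59.9, 56.9 and 57.9 CPM. Its 1.11-fold range passed the test (adjusted p = 0.0159), though not without replicate 2 (adjusted p = 0.372) or replicate 3 (adjusted p = 0.103). The ratio of Gclc to Gclm RPKM was 1.29 to 1.48. Gclm shares 4.70% of its exon bases with an antisense transcript, Gm17494 (5.32 ± 1.15 CPM), and 3.88% with a pseudogene, Gm6061, so a small part of its reads is uncertain.

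Gsr (ENSMUSG00000031584, chromosome 8, 33652523 to 33698163, plus strand), glutathione reductase, returns oxidised glutathione to its reduced form with NADPH. It stood at 25.6, 26.3, 31.5, 27.7 and 31.0 CPM in replicates 1 to 5. Replicates 3 and 5 were above the other 3, and the 1.23-fold range exceeded counting error (chi-square test, adjusted p = 6.9e-08). Replicate 3 was also the library with the most oligodendrocyte marker RNA (score 0.58), while replicate 5 was the second lowest (-0.44). The part of these cells in the Gsr values was not tested.

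In the thioredoxin branch, Txnrd1 (ENSMUSG00000020250, chromosome 10, 82833951 to 82897712, plus strand), cytosolic thioredoxin reductase, stood at 49.9, 48.6, 49.4, 50.9 and 48.2 CPM in replicates 1 to 5. This total coefficient of variation of 2.12% was under the 2.27% that counting alone gives, and the spread did not pass the test (adjusted p = 0.534). Txnrd1 and Gclc had the lowest coefficients of variation beyond counting error of the 10 genes, at 0% and 0.782%. Their order turned with summed reads as library size (1.18% and 0%) and without replicate 1 (0.663% and 0%). The mitochondrial counterpart of Txnrd1, Txnrd2, was lower, with a ratio of Txnrd1 to Txnrd2 RPKM of 2.03 to 2.49. With principal transcript lengths the means lay further apart, at 14.0 and 4.59 RPKM. Srxn1 (ENSMUSG00000032802, chromosome 2, 152105516 to 152111376, plus strand), sulfiredoxin, repairs overoxidised peroxiredoxins and is known to be induced by synaptic activity in neurons. It stood at 74.3, 77.0, 78.0, 89.0 and 82.9 CPM. Replicate 4 was highest, replicate 1 lowest, and the 1.20-fold range passed the test (adjusted p = 3.6e-12). Excitatory neuron markers, too, peaked in replicate 4 (score 0.08) and had their lowest score in replicate 1 (-0.15), and their part in the Srxn1 values was not tested.

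The classic induced targets Nqo1 and Hmox1 were the lowest of the 10 genes. Nqo1 (ENSMUSG00000003849, chromosome 8, 107388225 to 107403206, minus strand), a quinone reductase, stood at 2.79, 2.01, 2.08, 2.09 and 2.74 CPM in replicates 1 to 5. Replicates 1 and 5 were above the other 3, which were nearly equal. These values rest on 72 to 116 reads, and the adjusted p of 0.0503 lay just above the threshold of 0.05. It was under it with summed reads (0.0303) or median-of-ratios sizes (0.0441), with a minimum of 20 reads (0.0472) and without replicate 4 (0.0498). Hmox1 (ENSMUSG00000005413, chromosome 8, 75093621 to 75100589, plus strand), the inducible haem oxygenase, stood at 3.56, 3.48, 3.54, 3.71 and 4.40 CPM. Replicate 5 was highest and the others lay between 3.48 and 3.71 CPM, a spread that did not pass the test (adjusted p = 0.218). The constitutive haem oxygenase Hmox2 (17.2 ± 0.880 RPKM) exceeded Hmox1 in each library, by 8.11 ± 0.732 times.

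Of the 10 genes, 6 varied beyond counting error (Srxn1, Keap1, Gsr, Gclm, Slc7a11 and Nfe2l2), beside 74.4% of all 19239 genes tested. Among genes of at least 10 CPM, where counting error is smaller, it was 6 of 8, beside 87.6% of 9884 genes. The share was thus no higher than the background at either depth. The median coefficient of variation beyond counting error was 6.44% over the 10 genes and 8.25% over all genes of at least 1 CPM. The spread was uneven within the group, with 0% for Txnrd1, the lowest value the measure can take, 0.782% for Gclc and 20.9% for Slc7a11.

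**Figure D2:**
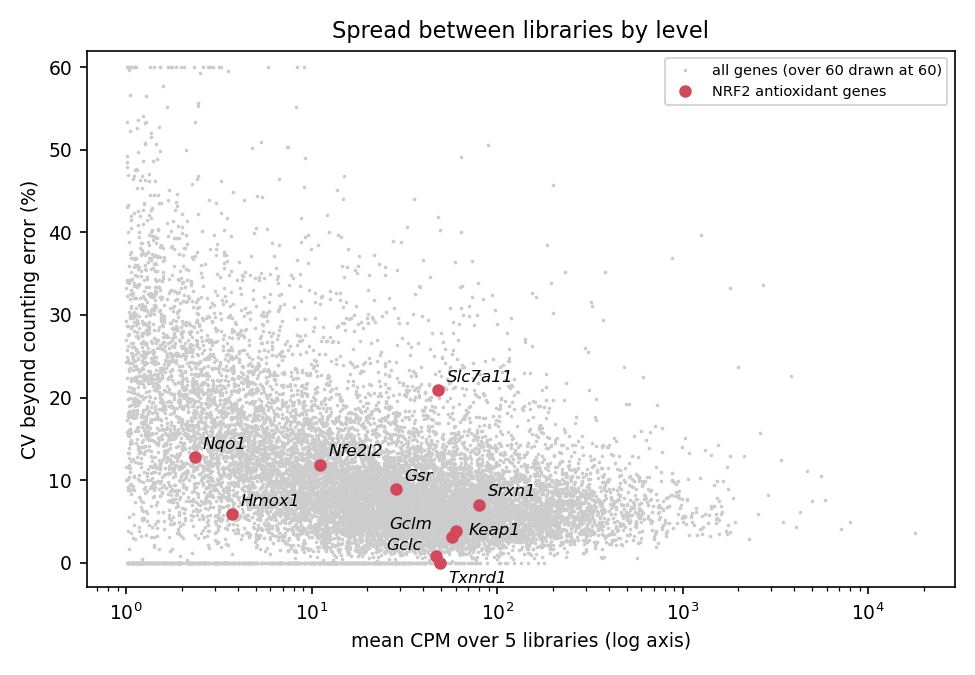
Coefficient of variation beyond counting error (percent) against mean CPM (log axis) over 5 libraries, for all genes of at least 1 CPM in grey and the 10 NRF2 antioxidant genes in red. Slc7a11 at 20.9% lies above 97.8% of the genes nearest in level, and Txnrd1 and Gclc at 0% and 0.782% lie near the bottom.

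The 10 genes did not share 1 pattern over the libraries. Replicate 5 was highest for 4 genes (Slc7a11, Hmox1, Keap1 and Gclc), replicate 1 lowest for 4 (Srxn1, Keap1, Gclc and Gsr) and replicate 2 lowest for 4 (Gclm, Nfe2l2, Hmox1 and Nqo1), while Nfe2l2 and Nqo1 peaked in replicate 1. The mean log2 deviation over the 10 genes was 0.02, -0.10, -0.05, 0.02 and 0.11 in replicates 1 to 5. In replicate 5, 8 of 10 genes were above their own mean (50.5% of all genes), and 2 of 10 were in replicate 2 (48.7% of all genes) and in replicate 3 (53.0%). In replicate 4, 6 of 10 were above, but 3 of 10 with summed reads as library size. Of the 45 pairs of genes, 2 lay on the same side of their means in all 5 libraries (4.44%, beside 4.95% of all gene pairs), namely Nfe2l2 with Txnrd1 and Keap1 with Gclc. Another 11 pairs did so in 4 libraries (24.4%, beside 16.4%). Txnrd1 and Gclc did not vary past the threshold of the test, so their sides and peaks can rest on small deviations. Examples are -0.0003 for Txnrd1 in replicate 3 and 0.003 for Gclc in replicate 4. Gclc was nearly equal in replicates 2 and 5 (47.8 and 47.9 CPM). With 5 libraries no correlation was computed.

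**Figure D3:**
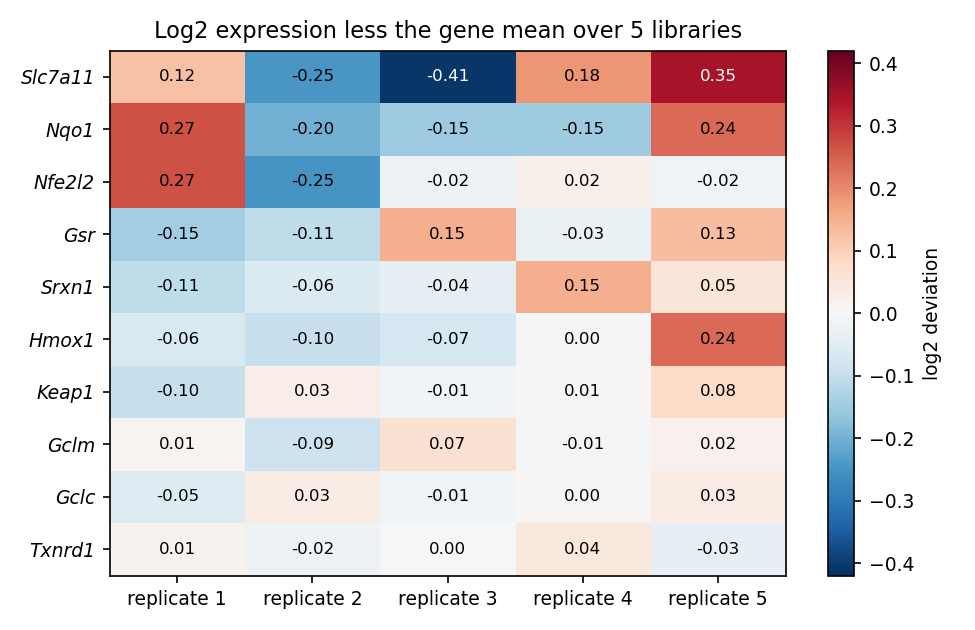
Log2 expression less each gene's mean over 5 libraries, for the 10 NRF2 antioxidant genes (rows, by falling coefficient of variation beyond counting error) in 5 libraries of stressed vehicle-treated males. Slc7a11 runs between -0.41 in replicate 3 and 0.35 in replicate 5, and Txnrd1 between -0.03 and 0.04.

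**Figure D4:**
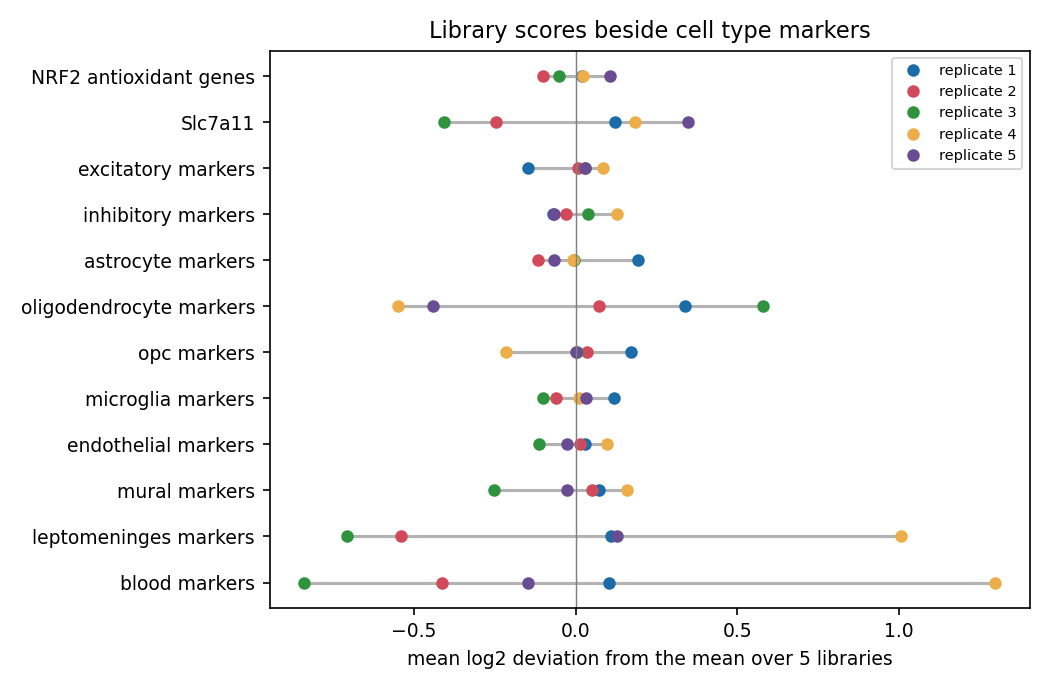
Mean log2 deviation of each library (points, coloured by replicate) for the 10 NRF2 antioxidant genes, for Slc7a11 alone and for marker lists of other cell types, with grey lines for the range. The antioxidant genes span 0.21, close to the inhibitory neuron (0.20), endothelial (0.21), microglia (0.22) and excitatory neuron (0.23) markers and below the oligodendrocyte (1.13), leptomeningeal (1.71) and blood (2.14) markers.

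A further 61 genes, called pathway genes here, were set beside the 10 genes in 7 lists. The 4 genes of the superoxide and peroxide list are not specific to NRF2 but are counted among them. All 61 were in the table, 60 had enough reads for the test and 55 of these varied beyond counting error, beside 74.4% of all genes. Among those of at least 10 CPM it was 48 of 50, beside 87.6%. The counts given below for each list stand beside these same shares. Their median coefficient of variation beyond counting error was 7.30%, over the 59 genes of at least 1 CPM, against 8.25% over all genes of that level. Named from each list are its leading genes by RPKM and, among genes of at least 1 CPM, the one with the largest coefficient of variation beyond counting error. That pick depends on level: the median over genes nearest in level was 22.5% for Maff and 6.35% for Mafg. Ranked among the genes nearest in level, Mafg, Taldo1, Fth1 and Ephx1 stood above the picks of their lists, Maff, Idh1, Blvra and Aox1. In the other lists the pick was the same. With principal transcript lengths the most abundant gene was the same in 7 of 7 lists and the next one another gene in 6, all but the haem and iron list.

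Among regulators, 10 of 10 tested genes varied. The autophagy adaptor Sqstm1, which binds KEAP1, was at 121 ± 4.36 RPKM and the NRF2 relative Nfe2l1 at 72.9 ± 3.93 RPKM. Nfe2l1 exceeded Nfe2l2 in each library, by 19.6 to 28.7 times. The small MAF gene Maff, whose product pairs with NRF2 on DNA, varied most, with 0.650 CPM in replicate 1 and 1.86 CPM in replicate 2. These values rest on 27 and 71 reads. The blood-lineage relative Nfe2 (0.115 ± 0.0974 CPM) had too few reads for the test.

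In the glutathione list 13 of 14 genes varied. Gpx4, which removes lipid peroxides, was at 118 ± 4.03 RPKM, and the glutathione transferase Gstm1 at 85.0 ± 8.56 RPKM. The microsomal transferase Mgst1 varied most, with 4.96 CPM in replicate 1 and 2.61 CPM in replicate 2. Replicate 1 had the highest scores of astrocyte (0.19), oligodendrocyte precursor (0.17) and microglia (0.12) markers. The part of these cells in the Mgst1 values was not tested. In the thioredoxin list 10 of 10 varied, with the peroxiredoxin Prdx5 at 74.2 ± 6.33 RPKM and thioredoxin itself, Txn1, at 48.9 ± 3.24 RPKM. Txnip, an inhibitor of thioredoxin, varied most and stood at 12.6, 9.52, 11.8, 15.2 and 9.77 CPM in replicates 1 to 5.

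All 6 genes of NADPH supply varied, with the pentose phosphate enzyme Taldo1 at 36.8 ± 4.34 RPKM and malic enzyme Me1 at 17.1 ± 0.742 RPKM. Isocitrate dehydrogenase Idh1 varied most (41.7 ± 5.11 CPM). This list was highest in replicate 3 (0.14) and lowest in replicate 4 (-0.08), the same libraries as for oligodendrocyte markers (0.58 and -0.55), whose part in it was not tested. Of the haem and iron list 4 of 6 varied. The ferritin chains Fth1 (519 ± 67.3 RPKM) and Ftl1 (118 ± 4.27 RPKM), which store iron, were the most abundant. Fth1 was highest in replicate 3 (2071 CPM) and lowest in replicate 4 (1561 CPM). The score of the haem and iron list did not follow it, with its highest value in replicate 1 (0.02) and its lowest in replicate 2 (-0.02). Biliverdin reductase Blvra varied most (12.4 ± 1.71 CPM).

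Of the detoxification list 8 of 10 varied. The carbonyl reductase Cbr1 (16.1 ± 0.615 RPKM) and the aldehyde dehydrogenase Aldh3a2 (8.40 ± 0.411 RPKM) were the most abundant, though Akr1b3 (18.5 RPKM) stood above Aldh3a2 (15.3 RPKM) with principal transcript lengths. The aldehyde oxidase Aox1 (6.07 ± 0.947 CPM) varied most among the genes of at least 1 CPM. Osgin1, below that level at 0.263 ± 0.159 CPM, had a higher coefficient of variation beyond counting error (51.9%, against 14.2% for Aox1), which rests on 4 to 18 reads a library. All 4 superoxide and peroxide genes varied, led by Sod1 at 37.5 ± 1.72 RPKM and catalase, Cat, at 16.7 ± 0.986 RPKM. Extracellular Sod3 varied most (13.0 ± 1.99 CPM).

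**Figure D5:**
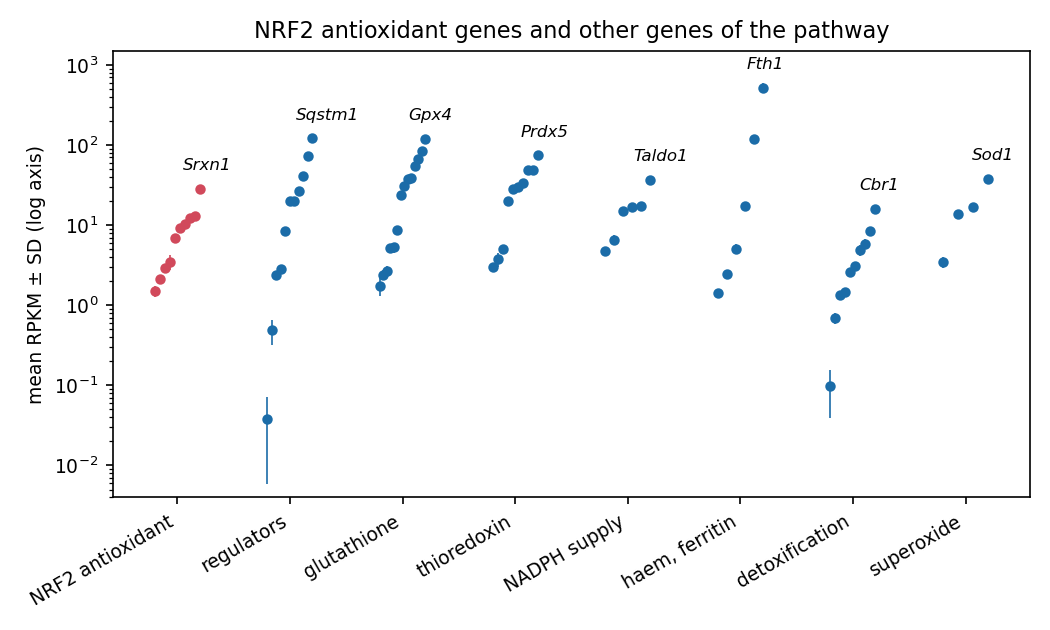
Mean RPKM (log axis) ± SD over 5 libraries of the 10 NRF2 antioxidant genes in red and of the genes of 7 other pathway lists in blue, with the most abundant gene of each named. The antioxidant genes lie between 1.51 and 28.5 RPKM, under Fth1 at 519 and Sqstm1 at 121 RPKM.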

How the data were processed

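The authors deposited log2 values. The submitters' processing notes name STAR 2.6.1d, SAMtools 1.9, featureCounts (Subread 1.6.3), edgeR and the builds GRCm38 and mm10. Which annotation was used, whether strand was counted and how genes were filtered is not given in the sources used here. A value was read as the log2 of CPM, with 0.5 added to the reads and an effective size for each column. Taking each column's minimum as 0 reads made 100% of values whole within 1e-06 reads. Of 25 columns, 20 match no sample by name and were not used.

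CPM and RPKM were computed from these reads with Python 3.11.15 (scipy 1.17.1, pandas 2.3.3, numpy 2.4.6, matplotlib 3.10.9). Symbols, coordinates and exon lengths came from GENCODE M21 on GRCm38 (23846 of 23990 identifiers matched), and promoter sequences from RefSeq. Library totals were 34565147 to 44265039 reads, and a floor of 3 reads equals 0.0673 to 0.0870 CPM. Since reads may be copies of 1 molecule, the test and the floor cover counting error only.

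The test was a chi-square test per gene of whether reads follow the effective library sizes (4 degrees of freedom, on genes averaging 5 reads or more, Benjamini-Hochberg adjustment over all of them, threshold 0.05). In simulated reads of 19294 genes, 100 genes were made to vary by 20% and 100 by 50%. The test found 54% and 76% of these, and 86.4% and 98.5% of those over 100 reads, with 4 false calls. The share of varying genes there was far below the 74.4% called in the data, and the adjustment depends on that share. Smaller variation was not simulated. The shares found therefore do not apply to missed calls such as Gclc and Hmox1, at 0.782% and 5.85% beyond counting error. The coefficient of variation beyond counting error subtracts the variance that counting gives. List scores are mean log2 deviations over genes of at least 1 CPM.

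The genes and lists were chosen with earlier results of these data known. Named were the 10 genes and, in each pathway list, the 2 most abundant genes and the most variable one of at least 1 CPM. Slc3a2, Txnrd2, Hmox2, Nfe2, Osgin1, Akr1b3 and the blood genes were named after their values were seen. Alternatives were other library sizes, filters and log offsets, and leaving out each replicate. Gene length, and leaving out replicates for library scores, were added after the data were seen.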

Additional observations from a re-analysis of the deposited data

Results flagged for a closer look

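Among 57 levels, ratios and list scores, 2 were flagged because 1 library lay far outside the rest (Dixon's ratio above 0.71), where chance is expected to flag about 2.85. Hmox1 stood at 4.40 CPM in replicate 5, against 3.48 to 3.71 CPM in the others, a spread with an adjusted p of 0.218 in the chi-square test. The carbonyl reductase gene Cbr1 stood at 38.4 CPM in replicate 2, against 41.4 to 42.3 CPM in the others, a spread that likewise missed the threshold (chi-square test, adjusted p = 0.0711).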

How the results depend on the processing

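The count of antioxidant genes beyond counting error was 6 as reported, 6 or 7 under other library sizes and filters, and 4 to 7 with 1 replicate left out. Over all genes it was 12646 to 15862 and over the other pathway genes 50 to 56 under all settings run. The calls of Slc7a11, Srxn1 and Gsr, and the missed calls of Gclc, Txnrd1 and Hmox1, held in each setting, and those of Nfe2l2, Keap1, Gclm and Nqo1 did not, as given with their values. The median level of the 10 genes was 8.04 RPKM as reported, 8.17 RPKM with summed reads, 8.16 RPKM with median-of-ratios sizes and 10.4 RPKM with principal transcript lengths. The range of the mean log2 deviation between libraries was 0.21, and 0.12 to 0.21 on leaving out each replicate, with the lowest value without replicate 5. No paired analysis was possible because the columns used belong to 1 group.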
